A study of Bos taurus with 12 samples.

Results

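GAS2, FBXO32, YPEL3 and RPRM are 4 genes known for their link to growth arrest, the state in which a cell stops dividing. They were chosen by gene symbol in the array's annotation, with their values under the flow conditions already known, and make up 4 of the 3977 genes that this annotation names. GAS2 (Entrez gene 614840), YPEL3 (787498) and RPRM (614739) have 1 probe set each. FBXO32 (513776) has a pair, of which the one with the higher mean over the 12 arrays is called the first and stands for the gene. This gives 5 probe sets of the 24016 tested.

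The cells were bovine aortic endothelial cells, which form the inner lining of the aorta and respond to the frictional force of flow, the wall shear stress (WSS). All were at passage 15, grown to confluence for 5 days on glass coverslips in medium with 10% serum, and moved 24 h before flow into medium with 5% serum and 8% Dextran 70. Flow then ran for 24 h under a positive gradient of WSS, a negative gradient of WSS, a uniform high WSS of 28.4 Pa or a uniform baseline WSS of 3.5 Pa, with 3 arrays for each of these 4 groups. The labels give neither the local stress in the gradient chambers nor whether the replicates were separate cultures, so p-values measure only the spread between these samples. The 4 groups share cell source, passage and medium, and none was kept without flow.

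Steady shear stress is known to hold endothelial cells back from dividing, and the 4 genes belong to separate branches of growth control. GAS2 encodes an actin-associated protein first found in mouse fibroblasts that had stopped dividing, and caspases cleave it in dying cells. FBXO32, also called atrogin-1, is the substrate-binding subunit of an SCF ubiquitin ligase; in wasting muscle of mice and rats it is induced by FOXO transcription factors. YPEL3, a small protein of the Yippee family, and RPRM, also called Reprimo, are both induced by p53 in human cells. There YPEL3 slows growth, and RPRM holds cells before mitosis, at the step run by cyclin B1 and CDK1.

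Across all arrays the medians of the log2 values lay between 5.65 and 5.71. Of the 17 endothelial markers 11 were measured, and their mean level per array was 9.83 to 9.95 under the positive gradient, 9.83 to 9.94 under the negative gradient, 9.53 to 9.87 at high WSS and 9.30 to 9.51 at baseline. All baseline arrays thus lay below all others, and the part of this list in the results was not tested. The 3′ minus 5′ difference of the GAPDH control, a check of RNA integrity and labelling, was 0.04 to 0.34 under the positive gradient, 0.04 to 0.17 under the negative gradient, 0.09 to 0.70 at high WSS and 0.59 to 0.69 at baseline (log2). It was thus lower in all 6 gradient arrays than at baseline. GAS2, FBXO32 and RPRM were also lower in mean than at baseline under both gradients, and YPEL3 only under the positive one. At high WSS the GAPDH difference was 0.64, 0.70 and 0.089 in replicates 1, 2 and 3. GAS2 had 5.14, 4.97 and 4.45 in these arrays, against 6.54 to 7.15 at baseline. The EF1A control had −1.09, −1.15 and −2.03 in these arrays. It had −2.08 to −1.54 under the positive gradient, −2.16 to −1.81 under the negative gradient and −1.42 to −1.04 at baseline. The ACTB control, with 1.06, 1.24 and 1.14 at high WSS, did not set replicate 3 apart. The part of these controls in the results was not tested. High WSS replicate 3 stood apart from its group: its nearest array was the third of the positive gradient, at a root mean square (RMS) distance of 0.197 that no other of the 66 array pairs undercut, while its distances within high WSS were 0.441 and 0.442. Differences against high WSS of the 4 genes, and the list values at high WSS, are therefore also given without it. Records of gradient and uniform flow are numbered in separate runs, and the labels do not say whether these were handled apart.

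GAS2 was at its lowest under the positive gradient and at its highest at baseline. Its log2 values were 4.61, 4.85 and 4.25 in positive gradient arrays, 6.30, 5.09 and 6.76 in negative gradient arrays, 5.14, 4.97 and 4.45 at high WSS and 6.99, 6.54 and 7.15 at baseline (replicates 1, 2 and 3). The 3 positive gradient arrays and the 3 high WSS arrays all lay below the 3 baseline arrays, while negative gradient replicate 2 stood near the high WSS arrays and the other two near baseline. Group means were 4.57 ± 0.30 under the positive gradient, 6.05 ± 0.86 under the negative gradient, 4.85 ± 0.36 at high WSS and 6.89 ± 0.31 at baseline (SD, n = 3 each). In the order of these means, no pair of neighbours was free of overlap. The files carry no detection calls, so whether the lowest GAS2 values lie above background is not known.

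FBXO32 followed the same order at its first probe set. The values there were 5.84, 6.84 and 6.04 in positive gradient arrays, 6.62, 7.64 and 8.03 in negative gradient arrays, 6.18, 7.27 and 5.998 at high WSS and 7.96, 8.64 and 8.37 at baseline. All 3 baseline arrays lay above the positive gradient and high WSS arrays, and the negative gradient arrays overlapped every other group. The second probe set had 5.48, 6.34 and 5.53 in positive gradient arrays, 6.40, 7.26 and 7.60 in negative gradient arrays, 5.36, 6.08 and 5.77 at high WSS and 6.63, 7.52 and 7.13 at baseline. At this probe set every negative gradient and baseline array lay above every positive gradient and high WSS array. The probe sets therefore differed on the negative gradient: its mean minus that of baseline was −0.89 at the first (log2) and −0.0069 at the second.

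YPEL3 had the narrowest spread within groups, and unlike the others it was highest under the negative gradient. Its values were 7.60, 7.25 and 7.29 in positive gradient arrays, 8.19, 7.97 and 8.13 in negative gradient arrays, 6.75, 6.97 and 7.34 at high WSS and 7.89, 7.61 and 7.83 at baseline. The negative gradient arrays lay above all others, the baseline arrays came next, and the positive gradient and high WSS arrays lay below both and overlapped each other. The means were 7.38 ± 0.19 under the positive gradient, 8.09 ± 0.11 under the negative gradient, 7.02 ± 0.30 at high WSS and 7.77 ± 0.15 at baseline (SD, n = 3 each).

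RPRM varied as much between replicate numbers as between flow groups. Its values were 7.35, 8.87 and 6.85 in positive gradient arrays, 8.35, 9.92 and 8.69 in negative gradient arrays, 7.11, 8.84 and 6.78 at high WSS and 8.36, 10.44 and 8.43 at baseline. In each group the array numbered 2 was the highest by over 1 log2 unit, so that all 4 groups overlapped. The means were 7.69 ± 1.05 under the positive gradient, 8.99 ± 0.83 under the negative gradient, 7.58 ± 1.10 at high WSS and 9.08 ± 1.18 at baseline (SD, n = 3 each).

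**Figure D1:**
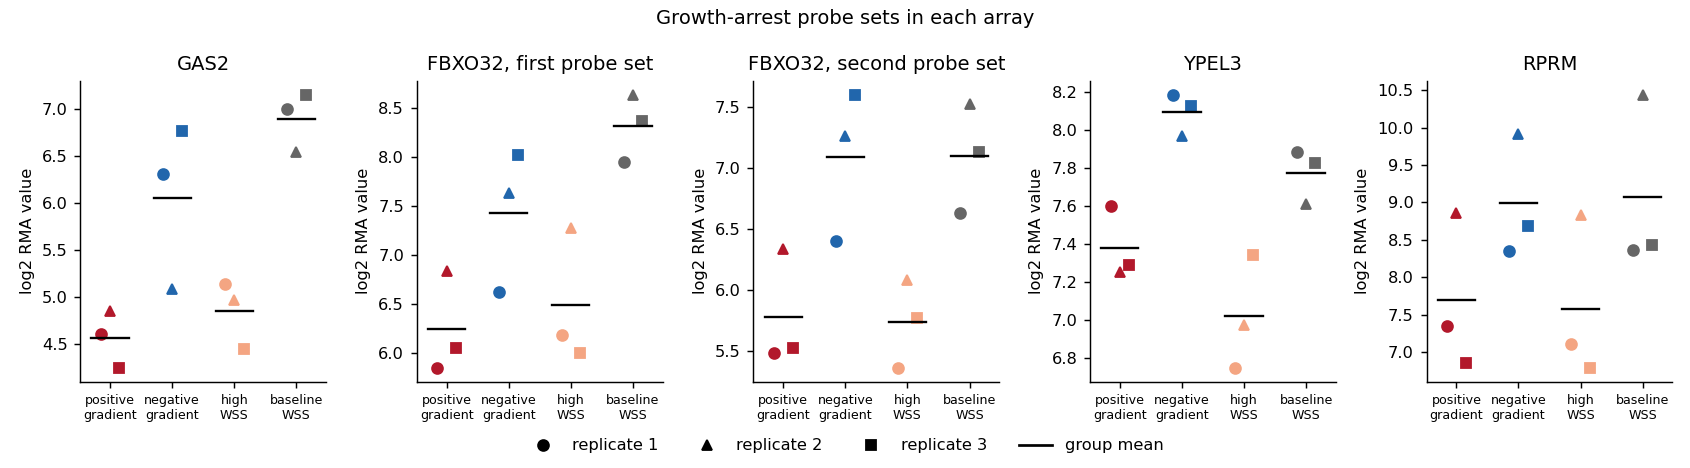
Log2 RMA value of each of the 5 probe sets (y axis, a separate scale for each panel) in the 12 arrays, by flow group; the marker gives the replicate number and the bar the group mean. Positive gradient and high WSS means lie below the baseline mean in each panel, YPEL3 is highest under the negative gradient (mean 8.09), and the RPRM arrays numbered 2 stand above the rest of their group.

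The differences between groups are given as a description, since the genes were chosen with these values known. Positive gradient against baseline sets a spatial gradient against the lowest uniform stress. The difference was −2.32 for GAS2 (log2, SE 0.346), which is 5.01-fold and the most negative of the 24016 probe sets. FBXO32 had −2.08 at its first probe set (SE 0.392, 4.24-fold, the fifth most negative) and −1.31 at its second (SE 0.327). RPRM had −1.39 (SE 0.68) and YPEL3 −0.39 (SE 0.163). All 3 pairs of equal replicate number had the same sign for each probe set, with −2.38, −1.69 and −2.90 for GAS2 and −1.01, −1.58 and −1.58 for RPRM.

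By limma, 2 of the 4 genes, GAS2 and FBXO32, were called lower in this comparison at an adjusted p under 0.05, where 4.27% of all probe sets were. With the replicate number as a block RPRM joined them, which made 3 where 9.64% of all probe sets were called lower. For GAS2, FBXO32 and YPEL3 all positive gradient arrays lay below all baseline arrays, a split in this direction that 17.9% of all probe sets had. Of the limma calls without the block, 0 of the 4 genes kept theirs when baseline replicate 3 or either of positive gradient replicates 2 and 3 was left out, and 1, GAS2, did without positive gradient replicate 1. The RPRM difference was −0.71 without baseline replicate 2. The genes were chosen with the values of every group known. Nothing is therefore read from the counts of these genes called or split, in this or any other comparison.

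High WSS against baseline sets 2 uniform stresses against each other. The difference was −2.04 for GAS2 (SE 0.346, 4.12-fold), −1.84 and −1.36 for the FBXO32 probe sets (SE 0.392 and 0.327), −1.50 for RPRM (SE 0.68) and −0.76 for YPEL3 (SE 0.163). Without high WSS replicate 3 the differences were −1.84 for GAS2, −1.60 and −1.37 for the FBXO32 probe sets, −1.11 for RPRM and −0.92 for YPEL3. GAS2 alone was called lower, where 0.296% of all probe sets were. With the block all 4 genes were, where 3.05% of all probe sets were. All 4 were also called with the block and without high WSS replicate 3, a setting for which no share of all probe sets is given. Without the block the count was 0 when high WSS replicate 1 or 3 or baseline replicate 1 or 3 was left out; without high WSS replicate 2 FBXO32 took the place of GAS2, and without negative gradient replicate 1 both were called. The RPRM difference was −0.82 without baseline replicate 2. GAS2, FBXO32 and YPEL3 had every high WSS array below every baseline array, as 9.89% of all probe sets did.

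The study's title asks whether the gradients differ by sign. All 5 probe sets had lower means under the positive gradient, with differences of −1.48 for GAS2 (SE 0.346, 2.79-fold), −1.19 and −1.31 for FBXO32 (SE 0.392 and 0.327), −1.30 for RPRM (SE 0.68) and −0.71 for YPEL3 (SE 0.163). In the pairs numbered 1, 2 and 3 the GAS2 difference was −1.69, −0.24 and −2.51, while that of YPEL3 was −0.59, −0.72 and −0.84. GAS2 therefore differed by little in the arrays numbered 2, where YPEL3 differed about as much as in the others. Without negative gradient replicate 2 the RPRM difference was −0.83. By limma 0 of the 4 genes were called, where 0.0% of all probe sets were called lower; 3 of the 4 and 1247 of all probe sets had an unadjusted p under 0.05. With the block 1 of the 4, RPRM, was called lower, where 0.0125% of all probe sets were. GAS2, YPEL3 and the second FBXO32 probe set had all positive gradient arrays below all negative gradient arrays, as 5.52% of all probe sets did.

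Set against baseline, the negative gradient gave differences of mixed sign. YPEL3 was 0.32 higher (SE 0.163), with 0.30, 0.36 and 0.30 in the numbered pairs. GAS2 had −0.85 (SE 0.346), with −0.69, −1.46 and −0.39 in the pairs. Without negative gradient replicate 2 the GAS2 difference was −0.36, and without negative gradient replicate 1 that of FBXO32 was −0.49 at the first probe set. RPRM had −0.092 (SE 0.68) and its pairs differed in sign. When 1 array was left out, RPRM ranged from −0.56 to 0.59 and the second FBXO32 probe set from −0.26 to 0.34, so neither had a settled sign. By limma 0 of the 4 genes were called, with or without the block, where 1.67% of all probe sets were called without it and 6.62% with it; 2 of the 4 had an unadjusted p under 0.05, as did 22.8% of all probe sets. FBXO32 was called lower when the block was used and high WSS replicate 3 left out. That setting was chosen after the data were seen and has no share of all probe sets beside it, so nothing is read from this call. Only for YPEL3 among the 4 did the 3 arrays of 1 group lie above the 3 of the other, as for 29.5% of all probe sets.

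Between the positive gradient and high WSS the arrays of all 5 probe sets overlapped, with differences of −0.28 for GAS2 (SE 0.346), −0.24 and 0.044 for FBXO32, 0.36 for YPEL3 (SE 0.163) and 0.11 for RPRM (SE 0.68). Without high WSS replicate 3 they were −0.49, −0.49, 0.061, 0.52 and −0.28, so RPRM changed sign. Over the arrays left out 1 at a time RPRM ranged from −0.48 to 0.74, the first FBXO32 probe set from −0.54 to 0.15 and the second from −0.23 to 0.22, all with both signs. GAS2 was −0.12 without positive gradient replicate 3 and −0.14 without high WSS replicate 1, and YPEL3 was 0.22 without high WSS replicate 1. By limma 0 of the 4 genes were called, where 0.0% of all probe sets were; 1 of the 4 and 1424 of all probe sets had an unadjusted p under 0.05. High WSS replicate 3 lay close to positive gradient replicate 3, with differences of 0.20 for GAS2, −0.046 and 0.24 for the FBXO32 probe sets, 0.053 for YPEL3 and −0.070 for RPRM.

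Under the negative gradient all 5 probe sets were higher than at high WSS. RPRM was 1.41 higher (SE 0.68), GAS2 1.20 higher (SE 0.346), YPEL3 1.08 higher (SE 0.163) and FBXO32 0.94 and 1.35 higher (SE 0.392 and 0.327). Without high WSS replicate 3 the differences were 1.01, 0.99, 1.24, 0.70 and 1.37. YPEL3 was called higher, 1 of the 4 genes where 0.0625% of all probe sets were called higher, and was not called when any of 9 arrays was left out. It stayed called without positive gradient replicate 1, high WSS replicate 3 or baseline replicate 2. All its negative gradient arrays lay above all its high WSS arrays, a split in either direction that 15.6% of all probe sets had. The second FBXO32 probe set was split in the same way. These 6 comparisons share their arrays in pairs, so they are not independent of each other.

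**Figure D2:**
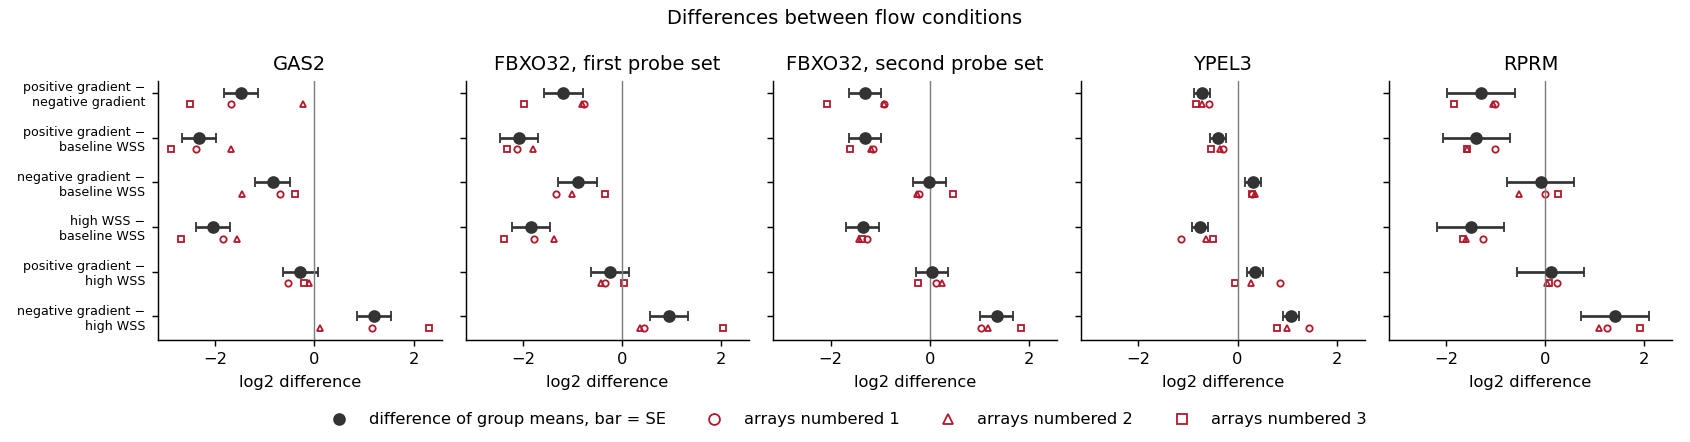
Log2 difference (x axis) of each of the 5 probe sets in the 6 comparisons (rows); filled points are differences of group means with limma's SE, and open red symbols the differences between arrays of equal replicate number. GAS2 lies at −2.32 for the positive gradient and −2.04 for high WSS, each against baseline, and at −0.28 between them; YPEL3 is the only gene to the right of 0 for the negative gradient against baseline.

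The replicate number was then looked at by itself, a step added after the values were seen. The genes were chosen with these values known, so the p-values given here are a description and carry no weight as a test. RPRM in the array numbered 2 lay above the mean of numbers 1 and 3 by 1.76 under the positive gradient, 1.40 under the negative gradient, 1.89 at high WSS and 2.04 at baseline (log2). Over the replicate numbers the RPRM means ranged by 1.83, and over the 4 flow groups by 1.50. The limma F test of the number, with the group means kept, gave an adjusted p of 3.58e-05 for RPRM, the highest F but 40 of the 24016 probe sets, where 6.32% of all probe sets passed. FBXO32 was also higher in number 2, by 0.72 at its first probe set (SE 0.193, adjusted p = 0.06 by limma) and by 0.56 at its second (SE 0.143, adjusted p = 0.0245 by limma). For GAS2 the difference was −0.34 (SE 0.250, adjusted p = 0.623 by limma) and for YPEL3 −0.18 (SE 0.114, adjusted p = 0.57 by limma). The SE of an RPRM difference between groups was 0.68 without the block and 0.175 with it, against 0.346 and 0.334 for GAS2.

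**Figure D3:**
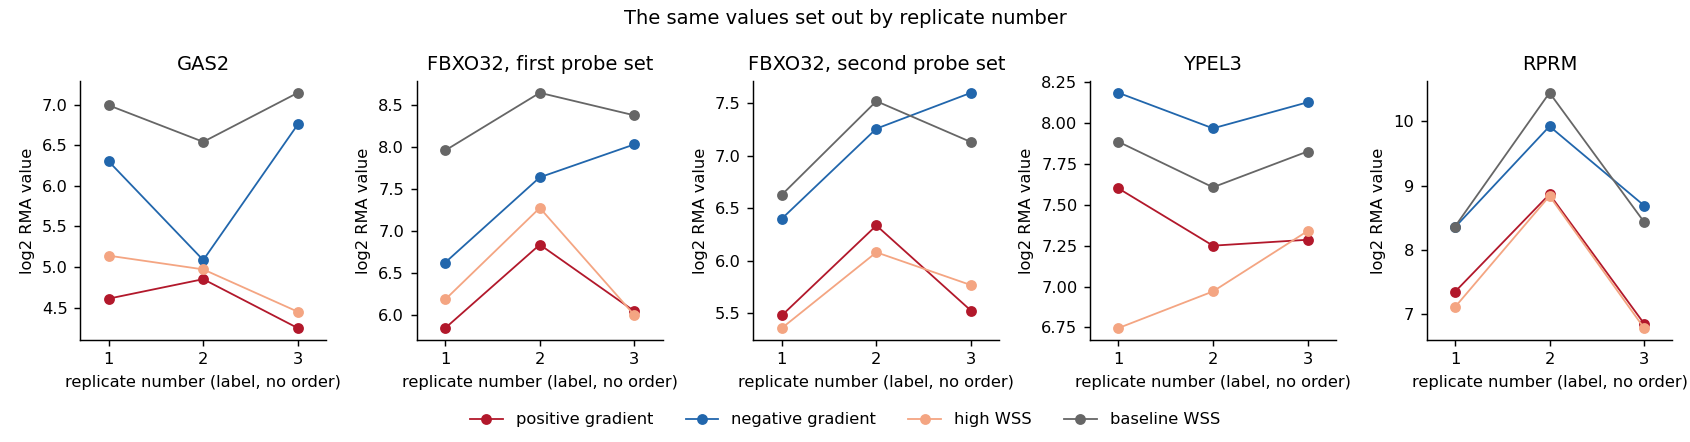
The log2 RMA values of the 5 probe sets (y axis) set out by replicate number (x axis, a label without order), with a line for each flow group. The 4 RPRM lines peak at number 2, by 1.40 to 2.04 over the mean of the other two arrays, while the GAS2 line of the negative gradient dips at number 2.

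The related lists, too, were chosen with earlier results of these data known. Their counts, medians and p-values are therefore a description and carry no weight as a test. They are set against the shares of all probe sets. No such share is given for the block without high WSS replicate 3. Under the positive gradient against baseline 2.74% of all probe sets rose and 4.27% fell by limma, and 7.32% rose and 9.64% fell with the block. At high WSS against baseline 0.112% rose and 0.296% fell by limma, and 2.34% rose and 3.05% fell with the block. An unadjusted p under 0.05 was found for 27.8% of all probe sets in the first of these comparisons, 14.9% in the second and 5.19% between the gradients.

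Of 4 measured growth-arrest-specific and Yippee relatives, 3 had lower values under the positive gradient than at baseline (median −0.35) and 1, YPEL2, fell by limma. YPEL2, a close relative of YPEL3, averaged 7.04 ± 0.35 under the positive gradient and 7.89 ± 0.14 at baseline (SD, n = 3 each), and fell by 0.85 (log2, SE 0.193, adjusted p = 0.0292 by limma). At high WSS against baseline it had −0.89 (SE 0.193, adjusted p = 0.0643 by limma; 0.0122 with the block) and, without high WSS replicate 3, −0.80 (adjusted p = 0.2 by limma; 0.0481 with the block), and under the negative gradient −0.54 (adjusted p = 0.131 by limma). It was thus lower than baseline in mean under the negative gradient, where YPEL3 was higher. YPEL5, which is found in nearly all tissues, had differences between −0.37 and 0.21 over the 6 comparisons and passed in none. GAS2L1, a GAS2 relative that links actin to microtubules, was 0.48 higher under the positive gradient than at baseline (SE 0.194, adjusted p = 0.132 by limma; 0.0442 with the block), the opposite sign to GAS2.

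FBXO32 is itself known as a target of the FOXO factors. Of 15 measured genes in a list of FOXO targets and atrophy genes, 12 had lower values under the positive gradient than at baseline (median −0.47, against 0.012 over all probe sets), 2 fell by limma and 0 rose. With the block 9 fell and 1 rose. PIK3IP1, an inhibitor of PI3-kinase, whose signalling keeps FOXO out of the nucleus, averaged 5.95 ± 0.31 under the positive gradient and 6.91 ± 0.071 at baseline and fell by 0.96 (SE 0.167, adjusted p = 0.0163 by limma). BNIP3, a mitochondrial protein of autophagy, fell by 1.15 at the probe set that stands for it (SE 0.256, adjusted p = 0.0282 by limma), while its other probe set stood at −0.27. At high WSS 13 of 15 genes had lower values than at baseline (median −0.46), 0 passed limma's test, 9 had an unadjusted p under 0.05 and 4 fell with the block. PIK3IP1 stood at −0.83 there (adjusted p = 0.0543 by limma; 0.0113 with the block). Without high WSS replicate 3 the list median was −0.40, with 5 genes at an unadjusted p under 0.05 and 3 that fell with the block, and PIK3IP1 stood at −0.83 (adjusted p = 0.153 by limma; 0.0401 with the block). Between the positive and the negative gradient 13 of 15 were lower (median −0.26) and 0 passed limma's test, with 3 at an unadjusted p under 0.05; PIK3IP1 had −0.86 (SE 0.167, adjusted p = 0.552 by limma).

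Of the SCF ligase that FBXO32 serves, 7 list genes were measured. CUL1, its scaffold, fell by 0.80 under the negative gradient against baseline (SE 0.171, adjusted p = 0.0412 by limma), while its other probe set stood at 0.33, and 0 of the 7 were called in the other 5 comparisons by limma. FBXO5, an F-box protein that inhibits the anaphase-promoting complex, was 1.04 higher under the positive gradient than at baseline (adjusted p = 0.158 by limma; 0.00626 with the block).

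The step that RPRM is known to hold is entry into mitosis. All 16 measured genes of the G2/M list had higher values under the positive gradient than at baseline (median 1.00), 2 rose by limma and 15 with the block. CKS2, a small subunit of CDK1 complexes, averaged 11.20 ± 0.40 under the positive gradient and 10.12 ± 0.45 at baseline and rose by 1.08 (SE 0.302, adjusted p = 0.0496 by limma). WEE1, the kinase that restrains CDK1, rose by 0.65 (adjusted p = 0.0409 by limma). CDK1 itself stood at 1.16 (SE 0.469, adjusted p = 0.134 by limma; 0.00626 with the block) and CCNB1, which encodes cyclin B1, at 1.26 (SE 0.581, adjusted p = 0.179 by limma; 0.00606 with the block), both named here because RPRM acts on them. At high WSS all 16 were higher than at baseline (median 1.04), 0 passed limma's test, 14 had an unadjusted p under 0.05 and 16 rose with the block. Without high WSS replicate 3 all 16 were still higher (median 1.05), with 8 at an unadjusted p under 0.05 and 10 that rose with the block. Between the gradients all 16 were higher under the positive one (median 0.60), and 0 passed limma's test with or without the block or at an unadjusted p under 0.05.

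The G2/M list also differed between replicate numbers. Its mean level was 9.62, 8.52 and 8.94 in positive gradient arrays, 9.40, 7.85 and 8.13 in negative gradient arrays, 9.54, 8.73 and 9.17 at high WSS and 8.60, 7.38 and 8.18 at baseline (log2, replicates 1, 2 and 3). In each group the array numbered 2 had the lowest mean of this list and the highest RPRM value. Replicate 1 had the highest list mean in each group, while the lowest RPRM value was in replicate 3 under the positive gradient and at high WSS.

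In the G1/S list 16 of 17 genes had higher values under the positive gradient than at baseline (median 0.69), and 3 rose by limma and 1 fell. With the block 12 rose and 1 fell. CCND1, the cyclin of G1, rose by 2.11 (SE 0.501, adjusted p = 0.0324 by limma), and the kinases CDK2 and CDK4 rose by 0.96 and 0.71. MYC, a driver of growth, fell by 0.86 (adjusted p = 0.037 by limma). At high WSS 16 of 17 were higher than at baseline (median 0.73), with 0 past limma's test, 13 at an unadjusted p under 0.05 and 10 that rose with the block. With high WSS replicate 3 left out 15 of 17 were higher (median 0.69), 8 had an unadjusted p under 0.05 and 5 rose with the block.

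The cell cycle inhibitors and p53 targets had differences in both directions. Of 14 measured, 8 had lower values under the positive gradient than at baseline (median −0.12), 1 fell and 1 rose. With the block 2 fell and 2 rose. TP53INP1, a p53-induced protein of stress and autophagy, fell by 0.73 (SE 0.199, adjusted p = 0.0458 by limma), and PLK3, a stress-activated kinase, rose by 0.70 (SE 0.185, adjusted p = 0.0423 by limma). At high WSS 7 of 14 were lower than at baseline (median −0.0084), and 0 passed limma's test, with 5 at an unadjusted p under 0.05. When high WSS replicate 3 was left out, 5 of 14 were lower and the median was 0.079. Of 7 genes linked to GAS2 through actin, calpain or caspases, ACTB, cytoplasmic actin, rose by 0.46 under the positive gradient against baseline (adjusted p = 0.0402 by limma). CAPNS1, the small calpain subunit, rose by 1.08 under the negative gradient against baseline (adjusted p = 0.0415 by limma).

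Over the 7 lists, 80 genes were measured, and 7 rose and 5 fell under the positive gradient against baseline by limma, where 7.01% of all probe sets were called. With the block 34 rose and 14 fell, where 17.0% were called. The number called by limma without the block was 0 without positive gradient replicate 2 or 3 or baseline replicate 3, 1 without positive gradient replicate 1, 2 without baseline replicate 1 and 3 without baseline replicate 2. In the negative gradient against baseline CAPNS1 rose and CUL1 fell. AKT1 of the FOXO list had 0.29 there at the probe set that stands for it (adjusted p = 0.193 by limma). Its other probe set had 1.36 (adjusted p = 0.0321 by limma). In the other 4 comparisons 0 of the 80 passed limma's test, with 1 to 45 at an unadjusted p under 0.05. At high WSS against baseline 27 rose and 5 fell with the block, where 5.39% of all probe sets were called, and 20 were called with the block when high WSS replicate 3 was left out. The 2 calls under the negative gradient were lost without any 1 of the positive gradient, negative gradient or baseline arrays, and there were 4 without high WSS replicate 3.

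**Figure D4:**
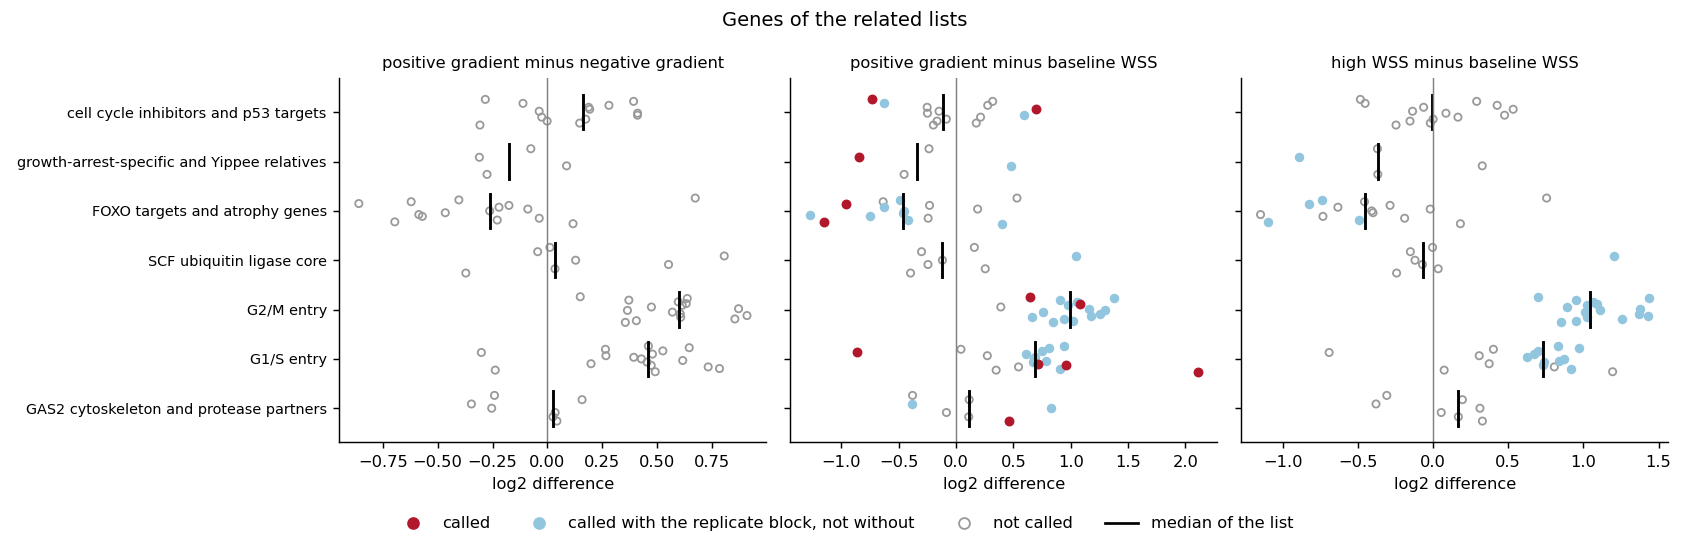
Log2 difference (x axis) of each gene of the 7 lists (rows) in 3 comparisons; red points were called by limma, blue points were called with the replicate block and not without it, and the black bar is the median of the list. The G2/M genes lie to the right of 0 in all 3 panels (medians 0.60, 1.00 and 1.04), and the medians of the FOXO list lie at −0.26, −0.47 and −0.46.

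Genes with the most similar pattern were found by the RMS difference from each of the 4 genes over the 12 arrays, after each gene was centred on its own mean, among the other 3976 named genes. These values share arrays and groups and are a description. For GAS2, whose own RMS about its mean was 1.03, the nearest were PRUNE2, MYLIP, H4C2, NREP and GHR (0.39 to 0.50). PRUNE2 averaged 6.72 under the positive gradient, 7.87 under the negative gradient, 6.71 at high WSS and 8.19 at baseline. MYLIP is a ubiquitin ligase of the LDL receptor, H4C2 a core histone and GHR the growth hormone receptor.

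FBXO32 lay nearest to NR2F1, an orphan nuclear receptor, at 0.27, where the RMS of FBXO32 about its own mean was 0.96. MEIS1, a homeobox transcription factor, TCP11L2, XAF1, an interferon-induced protein, and NOX4, an oxidase that makes hydrogen peroxide, followed at 0.37 to 0.42. XAF1 averaged 3.85 under the positive gradient and 3.90 at high WSS, and whether such low values lie above background is not known. For YPEL3 (own RMS 0.44) the nearest were BGN, which encodes the matrix proteoglycan biglycan, at 0.17, and GSN, the actin-severing protein gelsolin, at 0.18. SMPD2, PTGDS, a prostaglandin D synthase, and LOXL1, a cross-linker of elastin, lay at 0.19 to 0.20. BGN averaged 9.90 under the positive gradient, 10.35 under the negative gradient, 9.42 at high WSS and 9.99 at baseline, the same order of groups as YPEL3.

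The genes nearest to RPRM (own RMS 1.11) were CSF1, the growth factor of macrophages, at 0.21, then GRO1 and CCL26, both chemokines, CD14, a receptor of monocytes, and MS4A8, at 0.31 to 0.42. CSF1 had 8.92, 9.99 and 8.44 in positive gradient arrays, 9.40, 11.56 and 9.84 in negative gradient arrays, 8.30, 9.96 and 8.24 at high WSS and 9.52, 11.92 and 9.60 at baseline. It was highest in the array numbered 2 of each group, as RPRM was. Number 2 lay above the mean of the other two by 1.52 to 2.29 over these 5 genes, which were chosen for following RPRM over the same arrays. CD14 was the only measured leukocyte marker of 8, and its range was 4.18 to 5.52 under the positive gradient, 4.47 to 7.12 under the negative gradient, 3.98 to 6.09 at high WSS and 5.15 to 7.99 at baseline. It moved with RPRM over groups and numbers, and its part in the RPRM result was not tested. Of the skeletal muscle markers, fixed because FBXO32 is best known from muscle, CKM and MYH7 were measured of 12; their mean ranged from 8.46 to 8.85 under the positive gradient, 8.07 to 8.65 under the negative gradient, 8.19 to 8.97 at high WSS and 7.91 to 8.56 at baseline, and their part in the FBXO32 result was not tested.

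Markers of the other cell types of the vessel wall were looked at in the same way. Of 11 markers of smooth muscle and pericytes TAGLN and SMTN were measured, and their mean per array was 7.0003 to 7.90 under the positive gradient, 7.41 to 8.56 under the negative gradient, 6.71 to 7.54 at high WSS and 6.89 to 7.41 at baseline. The group mean of this pair was highest under the negative gradient, as that of YPEL3 was. TAGLN, an actin-binding protein of smooth muscle, averaged 8.61 ± 0.47 in positive gradient arrays and 9.95 ± 0.61 in negative gradient arrays (SD, n = 3 each), without overlap. Its difference was −1.34 (SE 0.358, adjusted p = 0.651 by limma and 0.0712 with the block). SMTN had the opposite sign, so 1 marker of this pair was lower and 1 higher under the positive gradient (median −0.56). Of 9 fibroblast markers COL1A2, COL3A1, THY1 and S100A4 were measured, and their mean per array was 9.77 to 10.25 under the positive gradient, 9.80 to 10.50 under the negative gradient, 10.06 to 10.50 at high WSS and 10.20 to 10.69 at baseline. The part of either marker list in the results for the 4 genes was not tested.

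The 4 genes were not each other's nearest. GAS2 and FBXO32 differed by an RMS of 0.61, which placed FBXO32 as number 25 of 3976 from GAS2 and GAS2 as number 77 from FBXO32. FBXO32 and RPRM differed by 0.67, which placed FBXO32 as number 37 from RPRM and RPRM as number 130 from FBXO32. YPEL3 differed by 0.83 from GAS2, 0.84 from FBXO32 and 1.02 from RPRM, which placed these as numbers 3764, 3783 and 3907 from YPEL3. In the other direction YPEL3 was number 351 from GAS2, 866 from FBXO32 and 832 from RPRM. GAS2 and RPRM differed by 1.10, which placed RPRM as number 2560 from GAS2 and GAS2 as number 1534 from RPRM. The size of the changes enters this measure, and YPEL3 moved over a smaller range than the others.

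**Figure D5:**
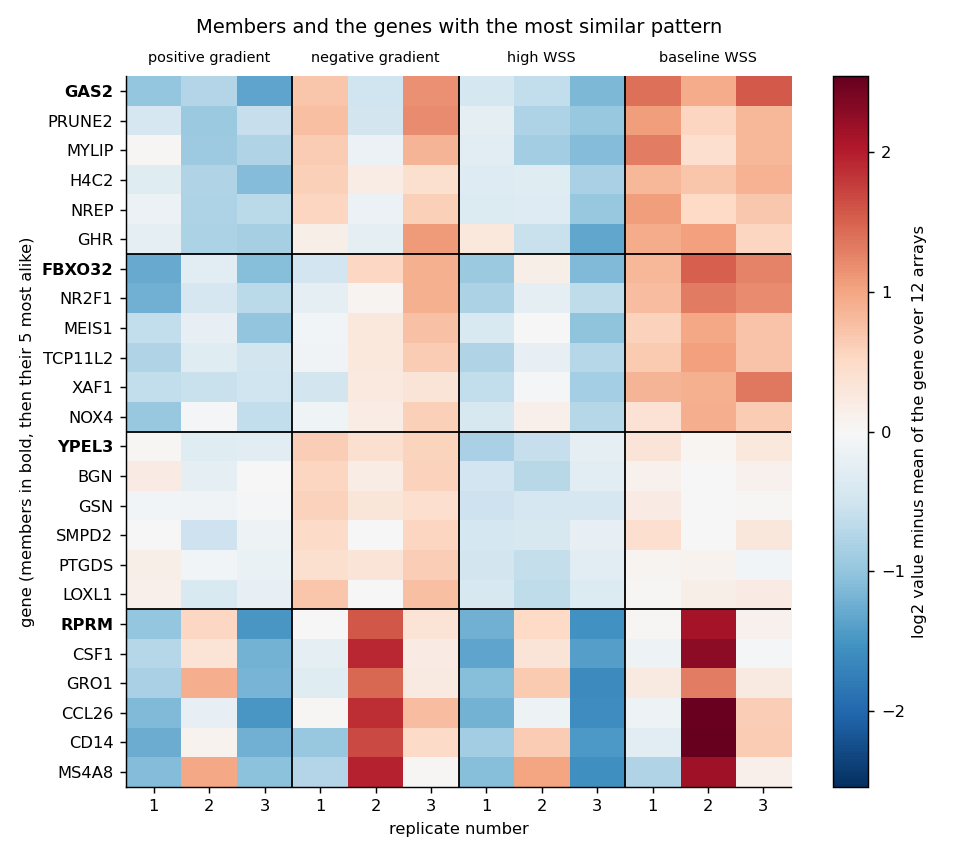
Log2 values minus the mean of each gene over the 12 arrays (colour) for the 4 genes in bold and the 5 named genes nearest to each (rows), by array (columns, grouped by flow condition with the replicate number below). The GAS2, FBXO32 and YPEL3 blocks differ mainly by flow condition, and the RPRM block is highest in the arrays numbered 2 of each condition, with CSF1 at 0.21 the nearest.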

How the data were processed

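The authors deposited log2 values for 12 bovine Affymetrix arrays. RMA and limma are the tools listed, per the submitters' processing notes, without versions. The members and gene lists were chosen with earlier results of these data known. After 112 control probe sets were set aside, 24016 were tested; 4726 had 1 symbol in the annotation, of which 4715 matched ARS-UCD2.0 by Entrez number with 0 symbols changed, and 19290 were unnamed here. A gene with several probe sets was represented by that of highest mean.

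One limma model (limma 3.58.1, R 4.3.3) with group means and no further scaling took in every array, with 8 residual and 4.95 prior degrees of freedom under the eBayes defaults. P-values were adjusted by Benjamini-Hochberg within each comparison across all tested probe sets, and calls made under 0.05. The fit without the block was tested on simulated data with independent noise in each array. A likeness of same-numbered arrays was not part of that check. Same-numbered arrays deviated together from their group means: the correlations were 0.15 to 0.62 in the 5 comparisons other than negative gradient against high WSS, where the lowest was −0.079. For those 5 the numbers in the titles were taken as pairs, and blocked values are given for part of the calls that they changed. Named list genes were up to 4 called genes per list with the largest change and no overlap or, with none called, up to 2 with the smallest p, and the paralogs. Alternatives were the block, a trended robust prior, the 2 groups alone, the dimmest probe sets left out (mean under 3.83), 2 scalings, probe-set means and each array left out. The number of arrays limits the precision.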

Additional observations from a re-analysis of the deposited data

How the results depend on the processing

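With the replicate number as a block, which pairs same-numbered arrays, limma called 6 probe sets for the positive against the negative gradient, 4074 for the positive gradient against baseline, 1590 for the negative gradient against baseline, 1294 for high WSS against baseline and 1030 for the negative gradient against high WSS. List genes called with the block numbered 48, 6, 32 and 13 in the last 4 of these comparisons. Of the 4 genes 1 was called between the gradients, 4 at high WSS against baseline and 2 for the negative gradient against high WSS, where the numbers are only shared. With the block and without high WSS replicate 3, chosen after seeing the data, 1, 4, 1, 4 and 2 of the 4 genes were called in those 5 comparisons. The list genes called in this setting numbered 51, 21 and 20 against baseline, 4 for the positive gradient against high WSS and 23 for the negative gradient against high WSS. No share of all probe sets is given for this setting, so nothing is read from these counts. A trended robust prior gave 201 probe sets, 2 list genes and 2 of the 4 genes at high WSS against baseline, and 117 probe sets for the negative gradient against high WSS. With the 2 groups alone 2551 probe sets were called for the positive gradient against baseline, and 0 probe sets and 0 of the 4 genes for either the high WSS against baseline or the negative gradient against high WSS. Without the dimmest probe sets (mean under 3.83) 1 list gene was called at high WSS against baseline. For the negative gradient against high WSS, 10 probe sets were called with array medians subtracted and 15 after a second quantile normalization. The cause of these shifts was not tested.

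Leaving out 1 array at a time gave 0 to 3248 probe sets, 0 to 15 list genes and 0 to 2 of the 4 genes for the positive gradient against baseline, 0 to 2073 probe sets and 0 to 4 list genes for the negative gradient against baseline, and 17 to 123 probe sets, 0 to 1 list genes and 0 to 2 of the 4 genes for high WSS against baseline. It gave 0 to 342 probe sets for the positive gradient against high WSS, and 0 to 1767 probe sets, 0 to 6 list genes and 0 to 1 of the 4 genes for the negative gradient against high WSS. Between the gradients the sign turned for CAVIN2 (−0.66 to 0.19), GAS2L1 (−0.021 to 0.28) and YPEL5 (−0.18 to 0.038). It also turned between the positive gradient and high WSS for BUB1B (−0.73 to 0.022), YPEL2 (−0.083 to 0.24) and YPEL5 (−0.014 to 0.25), and between the negative gradient and high WSS for GAS2L1 (−0.12 to 0.17). Of the 30 differences of the 5 probe sets of the 4 genes, 5 had both signs when 1 array was left out: RPRM and the second FBXO32 probe set for the negative gradient against baseline (−0.56 to 0.59 and −0.26 to 0.34), and RPRM and both FBXO32 probe sets for the positive gradient against high WSS (−0.48 to 0.74, −0.54 to 0.15 and −0.23 to 0.22). The second FBXO32 probe set also had 0.069 for the negative gradient against baseline after a second quantile normalization. None of these 5 was called without the block. The arrays give no signal over background, so what low values allow could not be assessed.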
